A study of Mus musculus with 28 samples.

Results

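Myc and 35 genes of nucleolar ribosome assembly were followed across all comparisons of the series. These 36 of the 43430 genes in the count tables were chosen by name, for their role, with earlier results of these data known. They were matched by Ensembl identifier, and all 36 were abundant enough to be tested in every comparison. RNA was sequenced from sorted regulatory T (Treg) cells, CD4+ YFP-Foxp3+ CD25+ cells of C57BL/6NJ mice, in 28 libraries. RISP, the Rieske protein that Uqcrfs1 encodes, is a subunit of complex III of the respiratory chain. RISP_KO and RISP_WT are Treg cells of 3-week-old mice with the RISP KO or RISP WT genotype (4 libraries each), and RISP_Chimera_KO and RISP_Chimera_WT are Treg cells with these genotypes from chimeras aged 8 to 12 weeks (4 libraries each). In vitro, RISP WT Treg cells from mice aged 3 weeks received piericidin at 1 µM (it inhibits complex I), 3-NPA (3-nitropropionic acid, which inhibits complex II) at 500 µM, antimycin A at 1 µM (it inhibits complex III) or no inhibitor (3 libraries each). All cells carried the YFP-Foxp3 marker by which they were sorted. Cre driver, duration of treatment and number of mice per library are not given in the labels, so p-values measure the spread between libraries, which may be technical.

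Ribosomes are assembled in the nucleolus, where RNA polymerase I transcribes a long precursor of the ribosomal RNAs. Small nucleolar ribonucleoproteins modify this precursor, those of the box C/D class by methylating riboses and those of the box H/ACA class by isomerising uridines, while large processing complexes cut it and fold it into the small and the large subunit. Myc is a transcription factor that binds E-box sequences, drives RNA polymerase I activity and many nucleolar genes, and is induced when T cells leave rest and start to grow and divide.

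The knockout labels held in the target gene. Uqcrfs1 read 5.19 to 7.27 CPM (a gene's count scaled to the library's total, with TMM factors) in RISP_KO against 151 to 189 CPM in RISP_WT. In chimeras the knockout libraries held 4.83 to 11.3 CPM of it and the wild-type libraries 72.7 to 87.7 CPM. Libraries held 28.4 to 50.8 M counts in 3-week-old mice, 20.4 to 31.0 M in chimeras and 2.71 to 3.45 M in vitro. The summed CPM of 8 Treg markers was 3486 to 7717 in every library, and 6 neutrophil markers summed to at most 1.35 CPM. In bulk RNA, fewer cells of a kind and less RNA per cell cannot be told apart.

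The 36 genes differed widely in level. Per kilobase of annotated exon, Npm1, the histone-binding nucleolar chaperone nucleophosmin, was highest in all 8 groups and averaged 291 CPM per kb in RISP_KO, 372 in RISP_Chimera_KO and 551 in untreated cells in vitro. Myc ranked between the second and the fourth of the 36 in all groups, with 144 CPM per kb in RISP_KO and 130 in untreated cells. Wdr12, Polr1a and Utp20 stood among the 5 lowest in RISP_KO, at 5.64, 4.82 and 3.38 CPM per kb. The lengths join the exons of all annotated transcripts, 2665 bases for Npm1, 10188 for Ncl and 11955 for Wdr12. The ranks depend on these lengths. Without division by length, Ncl stood above Npm1 in RISP_KO, at 880 to 1048 CPM against 707 to 850 CPM. In RISP_Chimera_KO, Ncl read 883 to 959 CPM and Npm1 919 to 1055.5 CPM. A feature that the choice of genes did not use is that 7 of the 36 (19.4%) hold small nucleolar RNA genes within their bounds on the same strand in GENCODE M21, against 1.93% of 11640 genes tested in vitro. These are Ncl, Gnl3, Nop56, Nop58, Dkc1, Wdr43 and Tsr1, with 21 such genes in all, of which Nop56 holds 5 and Nop58 holds 4. Exons of 17 members overlap exons of a gene on the opposite strand, among them Mybbp1a (with Spns2), Nop56 (with Idh3b), Rrp1b (with Hsf2bp) and Nhp2 (with Rmnd5b), and since the strand setting of the counting is not given in the sources used here, reads of such partners cannot be told apart.

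E-box letters were searched in the promoters, the 250 bases before and 50 bases after the annotated start in RefSeq (GRCm38.p6), for 31 of the 36 genes. Myc, Npm1, Fbl, Bop1 and Rrp12 were not matched. The palindrome CACGTG stood in 8 of the 31 (25.8%), in 1050 of 8705 promoters of genes tested in vitro (12.1%), in 19 of 94 promoters of other ribosome assembly genes (20.2%) and in 2187 of all 27025 promoters (8.09%). The variant CACGCG, read on both strands, stood in 9 of the 31 (29.0%), against 20.8% of the promoters of genes tested in vitro, 34.0% of those of other ribosome assembly genes and 10.5% of all. The 8 with CACGTG are Mybbp1a, Nop2, Pes1, Pno1, Tsr1, Utp18, Utp20 and Wdr43, and all 8 matches lie between 60 bases before and 40 bases after the first transcribed base. Of the 8 genes, Pes1, Utp18 and Utp20 were not called with antimycin A, where 27 of all 36 genes fell. Shown are the 5 that fell, chosen for that call, with CACGTG in capitals, each 5′ to 3′ in the direction of transcription.
Mybbp1a chr11:72441077-72441376, plus strand: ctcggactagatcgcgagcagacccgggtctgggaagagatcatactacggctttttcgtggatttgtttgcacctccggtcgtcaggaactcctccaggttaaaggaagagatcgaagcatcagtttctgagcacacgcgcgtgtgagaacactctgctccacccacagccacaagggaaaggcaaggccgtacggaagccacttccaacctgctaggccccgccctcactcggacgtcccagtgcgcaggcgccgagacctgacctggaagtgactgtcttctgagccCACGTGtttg
Nop2 chr6:125131633-125131932, plus strand: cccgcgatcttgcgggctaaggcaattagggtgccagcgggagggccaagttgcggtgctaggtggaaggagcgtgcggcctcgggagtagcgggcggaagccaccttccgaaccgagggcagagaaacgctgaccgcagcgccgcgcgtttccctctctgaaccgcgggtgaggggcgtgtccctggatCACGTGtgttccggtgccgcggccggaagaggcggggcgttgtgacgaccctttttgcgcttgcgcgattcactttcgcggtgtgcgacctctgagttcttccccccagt
Wdr43 chr17:71615965-71616264, plus strand: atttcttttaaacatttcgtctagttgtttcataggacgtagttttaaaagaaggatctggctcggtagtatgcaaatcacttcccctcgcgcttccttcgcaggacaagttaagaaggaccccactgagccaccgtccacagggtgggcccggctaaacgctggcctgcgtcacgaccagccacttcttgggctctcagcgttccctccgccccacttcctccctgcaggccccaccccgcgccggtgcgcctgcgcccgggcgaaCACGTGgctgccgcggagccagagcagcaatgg
Pno1 chr11:17211540-17211839, minus strand: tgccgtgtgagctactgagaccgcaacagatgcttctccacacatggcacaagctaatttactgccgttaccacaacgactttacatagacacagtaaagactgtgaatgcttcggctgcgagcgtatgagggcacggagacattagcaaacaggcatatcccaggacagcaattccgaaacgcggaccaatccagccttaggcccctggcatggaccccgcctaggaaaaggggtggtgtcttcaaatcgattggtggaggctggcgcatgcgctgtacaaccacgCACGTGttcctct
Tsr1 chr11:74897830-74898129, plus strand: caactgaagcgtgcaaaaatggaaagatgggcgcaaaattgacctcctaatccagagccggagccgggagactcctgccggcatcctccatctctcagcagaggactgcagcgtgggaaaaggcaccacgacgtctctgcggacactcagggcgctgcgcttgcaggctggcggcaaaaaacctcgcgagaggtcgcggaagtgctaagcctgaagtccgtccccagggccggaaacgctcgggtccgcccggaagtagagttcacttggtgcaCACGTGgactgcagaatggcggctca
The match starts 60 bases before the start in Nop2 and 17, 24, 37 and 40 bases after it in Wdr43, Tsr1, Pno1 and Mybbp1a. A match describes the letters and does not show binding.

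In Treg cells of 3-week-old knockout mice, Myc and 9 nucleolar genes rose and none of the 36 fell (edgeR quasi-likelihood test, Benjamini-Hochberg adjusted p under 0.05 over 13832 genes). Of all genes tested 9.86% were called, 4.78% higher and 5.08% lower. The 36 had a median log2 fold change of 0.24, against 0.00 over all genes tested, and all 36 values were positive, from 0.06 to 0.65. The genes that rose sit in RNA polymerase I transcription (Mybbp1a), the abundant nucleolar proteins (Ncl, Npm1, Gnl3), the box C/D particles (Nop56) and the large subunit (Rrp1b, Nop2, Wdr12, Ebna1bp2), and none of the 3 box H/ACA or 12 small subunit genes was called.

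Myc read 369.8, 353, 451 and 388 CPM in RISP_KO against 183, 277, 252 and 305 CPM in RISP_WT. Every knockout library stood above every wild-type library. The log2 fold change was 0.62 ± 0.14 (SE, n = 4 each; edgeR, adjusted p = 0.0215). The call was lost without RISP_WT replicate 3 (0.61, adjusted p = 0.0656) and without RISP_KO replicate 3 (0.54, adjusted p = 0.0578), within a range of 0.00123 to 0.0656 over 14 alternatives.

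Mybbp1a, a nucleolar protein that binds Myb and takes part in transcription and processing of ribosomal RNA, read 319.8, 282, 271 and 307 CPM in RISP_KO against 190.3, 222, 176 and 222 CPM in RISP_WT. Its log2 fold change was 0.54 ± 0.10 (edgeR, adjusted p = 0.00626) and the groups did not overlap. The other 4 genes of RNA polymerase I transcription were the polymerase subunits Polr1a, Polr1b and Polr1c and the nucleolar helicase Ddx21, which were not called and lay between 0.20 and 0.32.

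Among the abundant nucleolar proteins, Ncl (nucleolin, which binds ribosomal RNA and chromatin) read 1048, 879.9, 949 and 879.9 CPM in RISP_KO against 579.8, 703, 609 and 802 CPM in RISP_WT. All 4 knockout libraries stood above the highest wild-type library, with a log2 fold change of 0.48 ± 0.11 (edgeR, adjusted p = 0.0191). Npm1 rose by 0.43 ± 0.10 and Gnl3 (nucleostemin, a nucleolar GTPase) by 0.55 ± 0.15 on the log2 scale (adjusted p = 0.0241 and 0.0417), while Nolc1, a chaperone of small nucleolar particles, was not called. Of 8 fits that each left out 1 library, 6 called Ncl, 4 called Npm1 and 2 called Gnl3, with adjusted p up to 0.0684, 0.0821 and 0.126 (edgeR).

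Nop56, a core protein of box C/D particles, read 312, 284, 267 and 270.1 CPM in RISP_KO against 167, 189.9, 169 and 205 CPM in RISP_WT. The groups did not overlap, and the log2 fold change of 0.63 ± 0.09 had the smallest adjusted p of the 36 genes (edgeR, 0.00177). Fbl, Nop58 and Rrp9 of the same class were not called, at values between 0.18 and 0.38. Nhp2, the box H/ACA gene with the smallest p, read 136, 126, 109 and 108 CPM in RISP_KO against 93.6, 104, 97.3 and 112 CPM in RISP_WT, which overlap (0.23 ± 0.10, adjusted p = 0.170), and Dkc1 and Gar1 were not called either.

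For the small subunit, Nop14, a component of the processome that cuts the precursor, read 46.9, 52.8, 44.7 and 45.3 CPM in RISP_KO against 34.0, 37.9, 35.1 and 43.6 CPM in RISP_WT. The groups did not overlap, but its 0.33 ± 0.11 was not called (edgeR, adjusted p = 0.0814), and the 12 genes of this role lay between 0.08 and 0.33. For the large subunit, Rrp1b, a nucleolar protein that binds chromatin and precursor ribosomes, read 65.6, 64.7, 64.6 and 64.4 CPM in RISP_KO against 44.4, 42.8, 34.2 and 44.0 CPM in RISP_WT. Its 4 knockout libraries differed little from each other, and the log2 fold change of 0.65 ± 0.10 was the largest of the 36 (edgeR, adjusted p = 0.00266). Nop2, a methyltransferase of ribosomal RNA, rose by 0.42 ± 0.09, Wdr12 of the complex with Pes1 and Bop1 by 0.39 ± 0.09, and Ebna1bp2, a nucleolar assembly factor, by 0.30 ± 0.08 on the log2 scale. Bop1, Pes1 and Nop16 were not called, at values between 0.06 and 0.23. Of the 8 fits without 1 library, 7 called Nop2, 5 called Wdr12 and 2 called Ebna1bp2 (edgeR, adjusted p up to 0.0505, 0.0742 and 0.103). In all, 15 members were higher in every knockout library than in any wild-type one (7.89% of all genes) and 0 were lower (9.49%). The number of members that rose was 4 without RISP_WT replicate 3 and 5 without RISP_WT replicate 1.

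**Figure D1:**
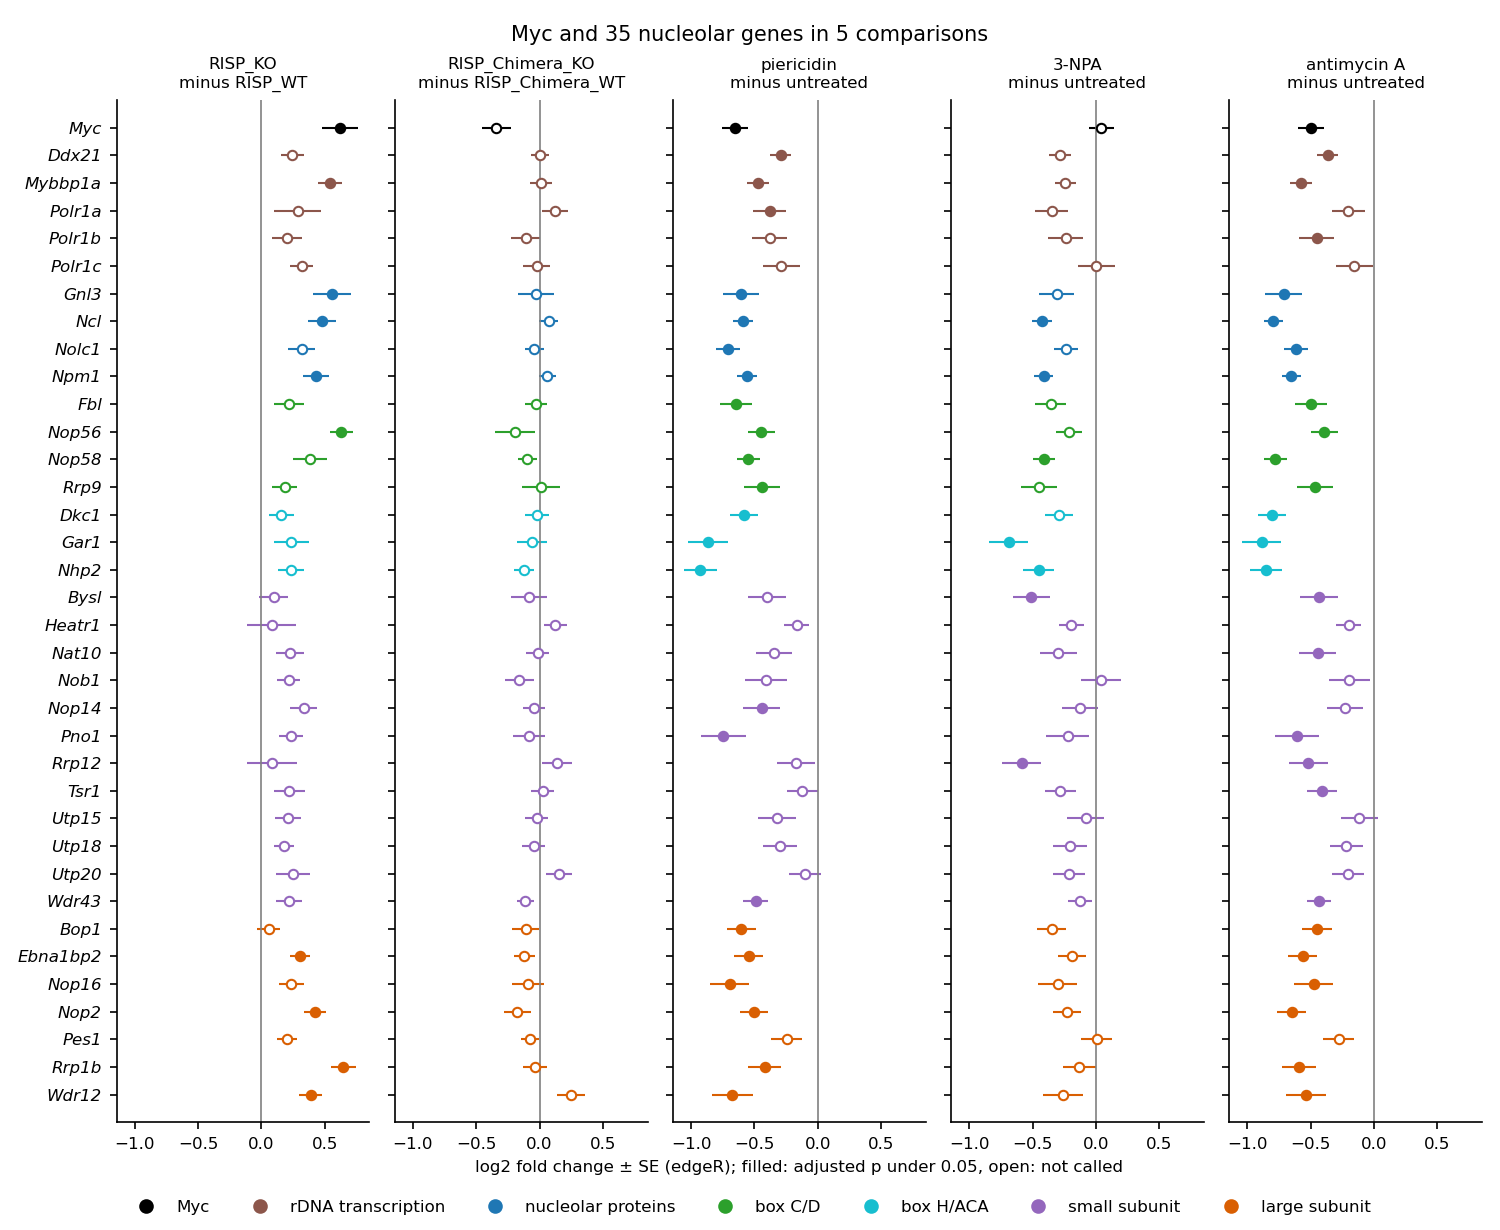
Log2 fold change ± SE (edgeR, x axis) of each of the 36 genes (y axis, ordered and coloured by role) in 5 panels, the knockout over wild type in 3-week-old mice and chimeras and each inhibitor over untreated cells; filled points are called, open points are not. All 36 points lie right of 0 for RISP_KO, they scatter about 0 for RISP_Chimera_KO, and all lie left of 0 for piericidin and antimycin A.

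Other lists were read in the same libraries. Of 117 further ribosome assembly genes tested, 7 rose, a share near the 4.78% of all genes, and 0 fell (median 0.12). Those with the smallest p were Noc2l (0.49 ± 0.09) and Nop53 (0.41 ± 0.09), assembly factors of the large subunit. Of 14 known Myc targets outside the nucleolus, 5 rose, among them Cad, the first enzyme of pyrimidine synthesis (0.70 ± 0.10), and the spermidine synthase Srm (0.48 ± 0.08). In the Myc network, Mxd1 rose (0.89 ± 0.16) and Mxd4 fell by 0.86 ± 0.15, both encoding proteins that pair with Max and repress E-box genes, while Max was not called (-0.20 ± 0.24). Of 25 genes of S phase 8 rose, and of 20 of G2 and mitosis 1 rose, Top2a (0.50 ± 0.10). In each library the median over a list of log2 differences from the RISP_WT mean was also read. For S phase it was 0.08 to 0.59 in RISP_KO and -0.12 to 0.11 in RISP_WT. For G2 and mitosis it was 0.04 to 0.72 in RISP_KO and -0.12 to 0.12 in RISP_WT. Over the 36 genes it was 0.20 to 0.38 in RISP_KO. Markers of other cells also differed. The 7 NK cell markers summed to 50.2 to 66.8 CPM in RISP_KO against 10.3 to 15.8 CPM in RISP_WT, with Gzma and Eomes called higher, Klra8 at 0 in both groups and Ncr1 at 0 in RISP_KO. The 12 macrophage markers summed to 6.45 to 13.5 CPM in RISP_KO against 16.7 to 51.9 CPM in RISP_WT, with 4 called lower. The 10 B cell markers summed to 25.2 to 33.9 CPM in RISP_KO against 45.0 to 59.4 CPM in RISP_WT, and the 7 epithelial markers to 21.2 to 33.5 CPM in RISP_KO against 41.9 to 53.4 CPM in RISP_WT. The 6 plasma cell markers summed to 377 to 461 CPM in RISP_KO against 221 to 271 CPM in RISP_WT, with Xbp1 called higher. The median of their log2 differences overlapped, at -0.15 to 0.26 in RISP_KO and -0.05 to 0.04 in RISP_WT. Tnfrsf17 was at 0 in both groups. The 8 dendritic cell markers summed to 3.27 to 5.95 CPM in RISP_KO against 6.02 to 7.19 CPM in RISP_WT, with 1 called lower, while sums of CD8 T cell and erythroid markers overlapped. The parts of the cell cycle and of these markers in the rise of the 36 genes were not tested.

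In chimeras, where knockout cells were taken at 8 to 12 weeks, none of the 36 genes was called in either direction by edgeR (0.708% of 14399 genes were), and DESeq2 also called 0. At an unadjusted p under 0.05, which makes no allowance for the number of genes tested, there were 2 members, Myc and Wdr12. The share of all genes at that threshold is not given here, so these 2 are not read as changes. The median log2 fold change of the 36 was -0.04, against 0.00 over all genes, with 25 negative and 11 positive values between -0.34 and 0.25. The widest interval limits of any member were -0.59 and 0.49 (95% intervals), and no member had knockout and wild-type libraries that did not overlap (3.4% of all genes were higher and 4.1% lower without overlap).

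Myc read 188, 136, 140.5 and 194 CPM in RISP_Chimera_KO against 222, 203, 192 and 217 CPM in RISP_Chimera_WT. Replicate 4 of the knockout stood just above the lowest wild-type library and the other 3 below it, and the log2 fold change of -0.34 ± 0.11 was not called (n = 4 each; edgeR, adjusted p = 0.225). Wdr12 read 34.9, 34.3, 38.2 and 27.7 CPM in the knockout chimeras against 29.5, 30.8, 25.4 and 28.3 CPM in the wild-type ones, with knockout replicate 4 inside the wild-type range (0.25 ± 0.11, adjusted p = 0.379). Polr1a, the largest subunit of RNA polymerase I, read 89.0, 75.2, 90.8 and 80.5 CPM in RISP_Chimera_KO against 62.4, 85.3, 82.1 and 78.9 CPM in RISP_Chimera_WT, which overlap (0.12 ± 0.10).

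In the other roles the groups also overlapped. Ncl read 883, 944, 959 and 955 CPM in RISP_Chimera_KO against 766, 905, 909.7 and 976 CPM in RISP_Chimera_WT (0.07 ± 0.08). Nop58, the partner of Nop56 in box C/D particles, read 143, 133, 135 and 115 CPM in knockout chimeras against 145, 139, 145 and 134 CPM in wild-type chimeras (-0.10 ± 0.08). Nhp2 read 40.9, 44.9, 43.5 and 38.8 CPM in knockout chimeras against 45.2, 46.8, 46.5 and 44.2 CPM in wild-type chimeras (-0.12 ± 0.08), and Wdr43, which joins the precursor early in small subunit assembly, read 135, 129, 124 and 119 CPM in knockout chimeras against 142, 144, 133 and 129 CPM in wild-type chimeras (-0.11 ± 0.07). The adjusted p of the 5 roles other than Myc and the large subunit was 0.539 to 0.741. Of the 117 further ribosome assembly genes 0 were called (edgeR; 6 at an unadjusted p under 0.05), of the 25 S phase genes 1 rose (Lig1, 0.51 ± 0.10) and of the 20 genes of G2 and mitosis 1 rose (Cenpe, 1.02 ± 0.20), although the median log2 fold change of the 20 genes was 1.02. The macrophage markers summed to 34.4 to 100.3 CPM in knockout chimeras against 26.4 to 69.0 CPM in wild-type chimeras, which overlap. Without overlap, the NK cell markers summed to 17.6 to 22.2 CPM in knockout chimeras against 9.31 to 14.8 CPM in wild-type chimeras, and the dendritic cell markers to 4.84 to 8.50 CPM in knockout against 3.90 to 4.80 CPM in wild-type chimeras, with none called. The epithelial markers summed to 2.49 to 5.78 CPM in knockout chimeras against 8.75 to 11.4 CPM in wild-type chimeras, with Epcam called lower. The part of these markers in the values of the 36 genes was not tested.

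The effect of the knockout differed between the settings for 4 of the 36 genes. In a single fit of all 16 libraries, the log2 fold change in chimeras minus that in 3-week-old mice was -0.98 ± 0.20 for Myc (edgeR, adjusted p = 0.0114), -0.85 ± 0.21 for Nop56 (0.0300), -0.70 ± 0.14 for Rrp1b (0.0108) and -0.62 ± 0.16 for Nop2 (0.0371). Of all 15580 genes 3.27% were called, 2.04% lower and 1.23% higher. Of the 36 differences 34 were negative, with a median of -0.33 against -0.01 over all genes. Mybbp1a (-0.55 ± 0.15, adjusted p = 0.0512), Ncl (-0.43 ± 0.14), Nhp2 (-0.37 ± 0.13) and Nop14 (-0.39 ± 0.14) were not called. The number called was 2 with either RISP_WT replicate 1 or 3, RISP_Chimera_WT replicate 3 or RISP_Chimera_KO replicate 3 or 4 left out, and 7 without RISP_WT replicate 4. Of 16 fits without 1 library, 9 called Nop56 and 6 called Nop2. Age, chimerism and library kit (SMART-Seq v4 with Nextera XT in 3-week-old mice, NEBNext Ultra I in chimeras) changed together and cannot be told apart.

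**Figure D2:**
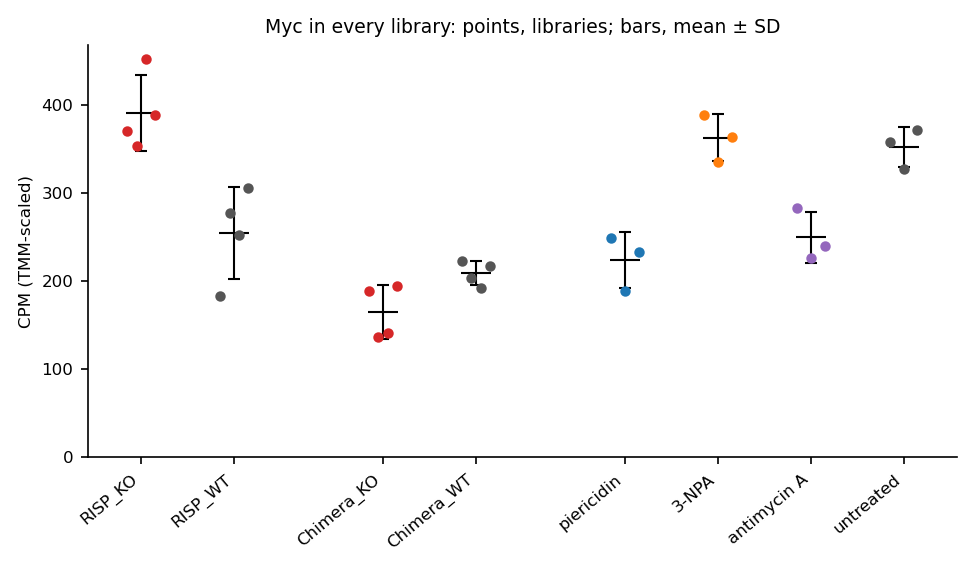
Myc in CPM scaled by TMM (y axis, from 0) in each library (points) of the 8 groups (x axis), with mean ± SD (bars; n = 4 for the knockout groups and their controls, n = 3 in vitro). RISP_KO libraries read 353 to 451 CPM, above all RISP_WT libraries, and the piericidin and antimycin A libraries lie below all untreated and 3-NPA libraries.

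In vitro, 24 of the 36 genes fell with piericidin, 7 with 3-NPA and 27 with antimycin A, and none rose with any of the 3 inhibitors. Among all 11689 genes tested, piericidin gave 7.93% called lower and 5.62% called higher. For 3-NPA 3.23% were called, 1.87% lower and 1.35% higher, and for antimycin A 8.5% were lower and 6.5% higher. The median log2 fold change of the 36 was -0.46 with piericidin, -0.25 with 3-NPA and -0.47 with antimycin A, against 0.01, -0.01 and 0.02 over all genes tested. All 36 values were negative with piericidin and with antimycin A, and 32 with 3-NPA. The 3 comparisons share the untreated libraries and are not independent of each other.

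Myc (chromosome 15, 61985341 to 61990374, plus strand, mm10) fell with piericidin and antimycin A and was not called with 3-NPA. It read 249, 189 and 233 CPM with piericidin, 388, 335 and 363 CPM with 3-NPA, 282, 226 and 240.0 CPM with antimycin A, and 358, 327 and 371 CPM in untreated cells. Every piericidin and antimycin A library lay below every untreated one, while the 3-NPA libraries overlapped the untreated ones. Its log2 fold change over untreated cells was -0.65 ± 0.10 with piericidin (n = 3 each; edgeR, adjusted p = 1.57e-05), 0.04 ± 0.10 with 3-NPA (adjusted p = 0.884, 95% interval -0.16 to 0.24) and -0.50 ± 0.10 with antimycin A (adjusted p = 0.000394). Compared directly, the log2 difference was -0.70 ± 0.10 for piericidin against 3-NPA (edgeR, adjusted p = 1.76e-05) and -0.54 ± 0.10 for antimycin A against 3-NPA (adjusted p = 0.000665). Between antimycin A and piericidin the difference was 0.15 ± 0.10, with an interval of -0.05 to 0.36 and no call.

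In RNA polymerase I transcription, Mybbp1a read 473, 472 and 415 CPM with piericidin, 582, 496 and 517 CPM with 3-NPA, 470.1, 388 and 407 CPM with antimycin A, and 614, 640.5 and 629.7 CPM in untreated cells. All treated libraries lay below the untreated ones, with calls for piericidin (-0.47 ± 0.09, edgeR adjusted p = 0.000173) and antimycin A (-0.58 ± 0.09, 5.04e-06) and none for 3-NPA. Ddx21, which had the smallest p of this role with 3-NPA, read 507, 494 and 521 CPM with piericidin, 525, 464 and 542 CPM with 3-NPA, 515, 443 and 490.0 CPM with antimycin A, and 649, 574 and 642 CPM in untreated cells. Its change with 3-NPA missed the threshold (-0.28 ± 0.08, adjusted p = 0.0524) and passed it with piericidin (-0.29 ± 0.08) and antimycin A (-0.36 ± 0.08). Of the polymerase subunits, Polr1a fell by 0.38 ± 0.13 with piericidin, Polr1b fell by 0.45 ± 0.14 with antimycin A, and Polr1c, which RNA polymerase III shares, was called with none of the 3 inhibitors. Of 6 fits that each left out 1 library, 3 called Ddx21 and 1 called Polr1a with piericidin, and 3 called Polr1b with antimycin A (edgeR, adjusted p up to 0.0836, 0.241 and 0.0900).

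Of the 4 abundant nucleolar proteins, all fell with piericidin and with antimycin A and 2 with 3-NPA. Ncl read 1819, 1522 and 1503 CPM with piericidin, 1941, 1667 and 1827 CPM with 3-NPA, 1511, 1376 and 1324 CPM with antimycin A, and 2511, 2366 and 2422 CPM in untreated cells. No treated library reached the lowest untreated one. The log2 fold change of Ncl was -0.59 ± 0.08 with piericidin (edgeR, adjusted p = 1.07e-06), -0.43 ± 0.08 with 3-NPA (0.00111) and -0.79 ± 0.08 with antimycin A (1.17e-09), the smallest p of the 36 genes in that comparison. Npm1 fell by 0.56 ± 0.08, 0.41 ± 0.08 and 0.65 ± 0.08 on the log2 scale with piericidin, 3-NPA and antimycin A. Nolc1 fell by 0.71 ± 0.10 with piericidin and 0.62 ± 0.10 with antimycin A, and Gnl3 fell by 0.60 ± 0.14 and 0.71 ± 0.14. Neither was called with 3-NPA. With piericidin, 5 of the 6 fits without 1 library called Gnl3.

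Among box C/D genes, Nop58 read 245, 234 and 248 CPM with piericidin, 281, 266 and 255 CPM with 3-NPA, 202, 214 and 203 CPM with antimycin A, and 355, 351 and 356 CPM in untreated cells. The 4 groups did not overlap at all, and untreated cells were highest. The log2 fold changes were -0.55 ± 0.09 (edgeR, adjusted p = 2.53e-05), -0.41 ± 0.09 (0.00487) and -0.78 ± 0.09 (2.19e-08) with piericidin, 3-NPA and antimycin A. Fbl (fibrillarin, the ribose methyltransferase of these particles), Nop56 and Rrp9, which belongs to the particle that guides early cuts of the precursor, fell by 0.44 to 0.64 with piericidin and by 0.39 to 0.50 with antimycin A, and none of the 3 was called with 3-NPA. Of the 6 fits without 1 library, 3 called Rrp9 with piericidin and 4 with antimycin A, and 5 called Nop58 with 3-NPA. Without untreated replicate 3, Rrp9 was at -0.29 with piericidin (edgeR, adjusted p = 0.270).

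The 3 box H/ACA genes had the lowest median log2 fold change of the 6 nucleolar roles with each inhibitor, at -0.86, -0.45 and -0.85 with piericidin, 3-NPA and antimycin A. Nhp2 read 95.7, 90.6 and 78.7 CPM with piericidin, 133, 114 and 120.0 CPM with 3-NPA, 105, 85.6 and 88.3 CPM with antimycin A, and 179, 143 and 181 CPM in untreated cells. Gar1, another core protein of these particles, read 56.7, 46.7 and 55.2 CPM with piericidin, 57.6, 57.0 and 64.3 CPM with 3-NPA and 59.7, 53.3 and 43.0 CPM with antimycin A, against 104, 88.1 and 96.6 CPM in untreated cells. Dkc1 (dyskerin, the pseudouridine synthase) read 172, 153 and 148 CPM with piericidin, 198, 207 and 176 CPM with 3-NPA and 158, 123 and 125 CPM with antimycin A, against 262, 217 and 229 CPM in untreated cells. In all 3 genes every treated library lay below every untreated one. Nhp2 fell to 0.526 times the untreated level with piericidin (log2 fold change -0.93 ± 0.13, edgeR adjusted p = 2.28e-06), and its log2 fold change was -0.45 ± 0.12 with 3-NPA (0.0338) and -0.85 ± 0.13 with antimycin A (3.60e-06). Gar1 fell by 0.86 ± 0.16, 0.69 ± 0.16 and 0.89 ± 0.16 with piericidin, 3-NPA and antimycin A, the lowest of the 36 values with 3-NPA and antimycin A. Dkc1 fell by 0.58 ± 0.11 with piericidin and 0.81 ± 0.11 with antimycin A and was not called with 3-NPA. With 3-NPA, 2 of the 6 fits without 1 library called Nhp2 (edgeR, adjusted p up to 0.188) and 5 called Gar1.

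Of the 12 small subunit genes, 3 fell with piericidin, 2 with 3-NPA and 6 with antimycin A. Wdr43 read 168, 155 and 176 CPM with piericidin, 212, 225 and 208 CPM with 3-NPA, 181, 167 and 171 CPM with antimycin A, and 216, 242 and 244 CPM in untreated cells. The piericidin and antimycin A libraries lay below all untreated ones, and those with 3-NPA overlapped them. Wdr43 fell by 0.49 ± 0.10 with piericidin (edgeR, adjusted p = 0.000456) and 0.43 ± 0.10 with antimycin A (0.00131). Rrp12, which serves subunit export, read 98.2, 72.8 and 82.4 CPM with piericidin, 64.4, 62.9 and 62.9 CPM with 3-NPA, 63.6, 65.8 and 70.1 CPM with antimycin A, and 91.5, 116 and 77.4 CPM in untreated cells. It was called with 3-NPA (-0.59 ± 0.15, adjusted p = 0.0249) and antimycin A (-0.52 ± 0.15), and its 3 untreated libraries were far apart. Pno1, a late factor at the future 3′ end of the small subunit RNA, fell by 0.75 ± 0.18 and 0.61 ± 0.17 with piericidin and antimycin A, and Nop14 fell by 0.44 ± 0.14 with piericidin. Bysl (bystin) fell by 0.51 ± 0.15 with 3-NPA and 0.44 ± 0.15 with antimycin A, and Tsr1 (0.41 ± 0.12) and the acetyltransferase Nat10 (0.45 ± 0.14) fell with antimycin A. Of the 6 fits without 1 library, 1 called Bysl and 1 called Rrp12 with 3-NPA, 3 called Nop14 with piericidin, and with antimycin A 3 called each of Bysl, Tsr1 and Nat10, 4 called Rrp12 and 5 called Pno1. Without untreated replicate 1, Bysl was at -0.32 with 3-NPA and -0.27 with antimycin A (edgeR, adjusted p = 0.381 and 0.327), and Nop14 at -0.23 with piericidin (0.412). The processome components Utp15, Utp18, Utp20 and Heatr1, and Nob1, the endonuclease of the last cut, were called with none of the 3, with values between -0.41 and 0.04.

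Of the 7 large subunit genes, 6 fell with piericidin, 0 with 3-NPA (edgeR; 2 at an unadjusted p under 0.05) and 6 with antimycin A. Bop1 read 94.6, 108 and 100.04 CPM with piericidin, 129, 111 and 121 CPM with 3-NPA, 113, 115 and 109 CPM with antimycin A, and 145, 149.6 and 165 CPM in untreated cells. Nop2 read 124, 124 and 127 CPM with piericidin, 154, 145 and 153 CPM with 3-NPA and 115, 120.0 and 102 CPM with antimycin A, against 197, 173 and 159.9 CPM in untreated cells. Both genes were below the untreated range in every treated library. Bop1 fell by 0.60 ± 0.12 with piericidin (edgeR, adjusted p = 0.000327) and by 0.45 ± 0.12 with antimycin A (0.00525), and its -0.35 ± 0.12 with 3-NPA was not called (0.0879). Nop2 fell by 0.50 ± 0.11 with piericidin and by 0.65 ± 0.11 with antimycin A (adjusted p = 4.26e-05). Ebna1bp2, Nop16, Wdr12 and Rrp1b fell by 0.42 to 0.69 with piericidin and by 0.48 to 0.59 with antimycin A. Pes1, the partner of Bop1 and Wdr12, was called with none of the 3, at values between -0.28 and 0.01. Of the 6 fits without 1 library, 3 called Rrp1b with piericidin, and 2 called Nop16 and 3 called Wdr12 with antimycin A (edgeR, adjusted p up to 0.171, 0.124 and 0.0957).

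**Figure D3:**
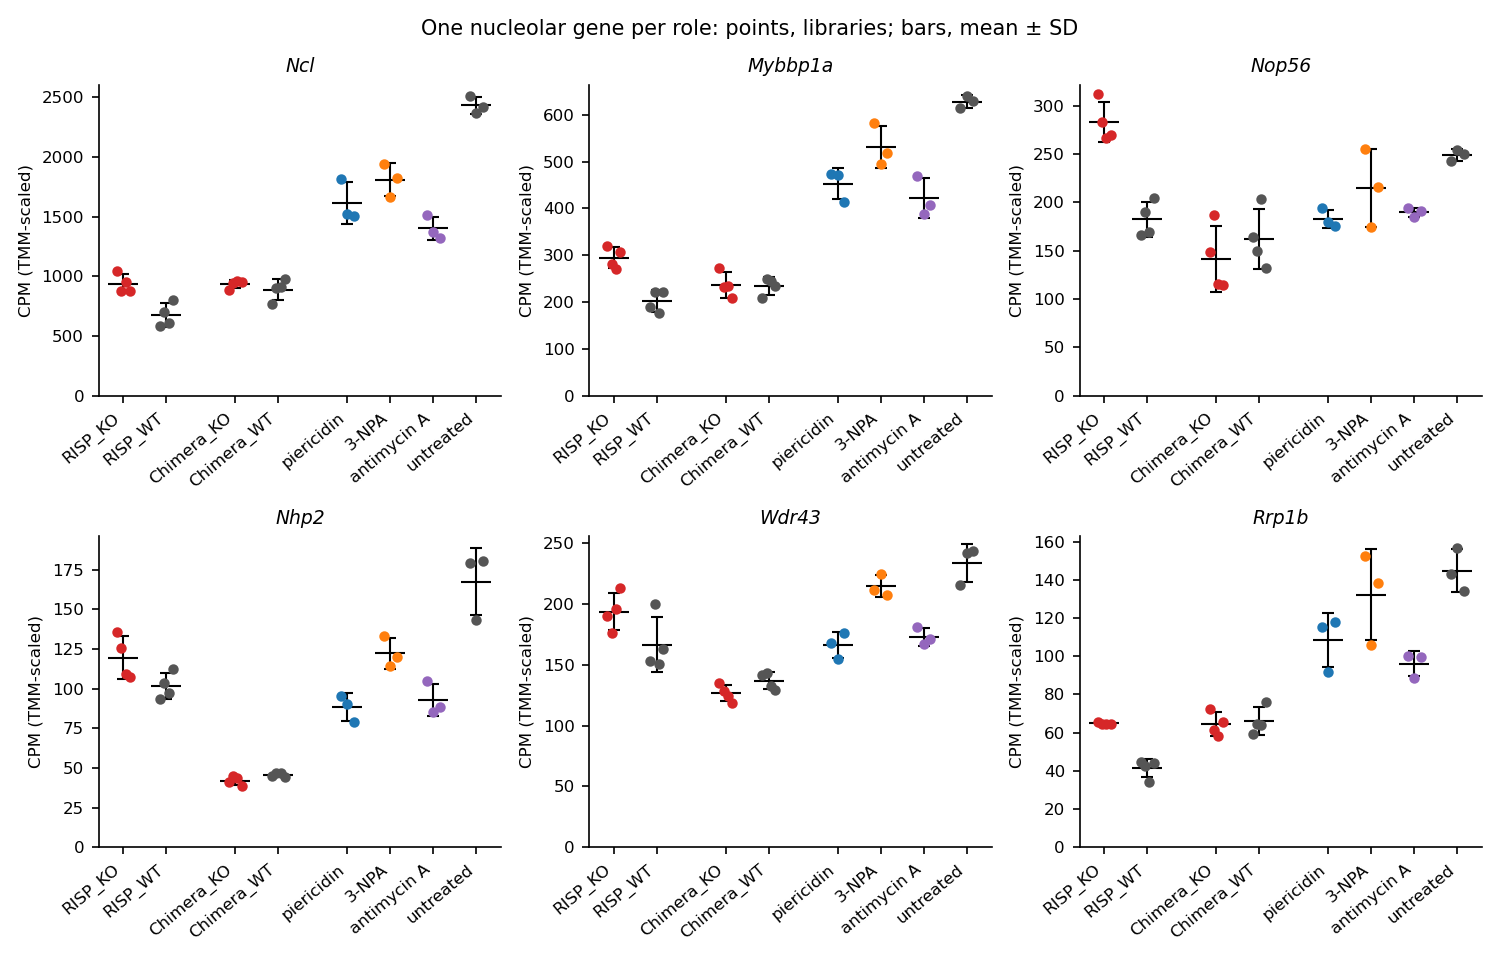
CPM scaled by TMM (y axes, from 0) of 1 gene for each role other than Myc, in each library (points) of the 8 groups (x axes), with mean ± SD (bars; n = 4 for the knockout groups and their controls, n = 3 in vitro). The RISP_KO points lie above RISP_WT without overlap for Ncl, Mybbp1a, Nop56 and Rrp1b, and the piericidin and antimycin A points lie below untreated for Ncl, Mybbp1a, Nop56, Nhp2, Wdr43 and Rrp1b.

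Libraries were also compared gene by gene for overlap. Of the 36 genes, 30 were lower in every piericidin library than in any untreated one, 24 with 3-NPA and 33 with antimycin A, where 15.2%, 11.3% and 15.9% of all genes were. None was higher in every treated library, as 13.7%, 9.43% and 15.1% of all genes were. The 5 genes whose promoters are shown were chosen for their fall with antimycin A, against the same untreated libraries. With piericidin, where 24 of the 36 genes fell, Pno1, Nop2, Mybbp1a and Wdr43 fell. Tsr1 was not called there, and neither were Pes1, Utp18 and Utp20, which also hold CACGTG. None of the 5 was called with 3-NPA, where 7 of the 36 genes fell. All 7 members with small nucleolar RNA genes fell with antimycin A, 6 of them with piericidin, and Ncl and Nop58 with 3-NPA. Of all 36 members 27, 24 and 7 fell with antimycin A, piericidin and 3-NPA, and of all genes tested 8.5%, 7.93% and 1.87%. Whether holding such genes goes with the fall was not tested.

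The inhibitors were then compared with each other at these doses, which differ, as 3 pairs. Antimycin A against piericidin gave 0 of 36 members (edgeR; 4 at an unadjusted p under 0.05, and DESeq2 also 0), where 0.736% of all genes were called. The 36 differences lay between -0.34 and 0.22 with a median of -0.03, and the widest limits of their 95% intervals over the 36 genes were -0.66 and 0.55. Without overlap, 3 members were lower with antimycin A than with piericidin (Nop58, Rrp12 and Nop2; 7.5% of all genes) and 3 higher (Utp15, Nop14 and Bop1; 8.3%). In the roles with the smallest p, the difference was -0.20 ± 0.08 for Ncl, -0.23 ± 0.09 for Nop58, -0.23 ± 0.11 for Dkc1, -0.29 ± 0.12 for Tsr1, 0.18 ± 0.13 for Polr1a and 0.22 ± 0.16 for Nop16. Tsr1, a late small subunit factor, read 129, 109.8 and 103 CPM with antimycin A against 146, 149.6 and 121 CPM with piericidin, and Polr1a read 119, 110.0 and 114 CPM with antimycin A against 102, 113 and 88.8 CPM with piericidin. Nop16 read 58.9, 53.9 and 65.3 CPM with antimycin A against 57.4, 46.4 and 49.1 CPM with piericidin. These 3 overlap between the inhibitors, and the highest Nop58 library with antimycin A (214 CPM) lay below the lowest with piericidin (234 CPM).

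Against 3-NPA, 8 members were lower with antimycin A (2.38% of all genes) and 4 with piericidin (2.43%), and none was higher (1.6% and 1.87%); in either direction 3.98% and 4.29% of all genes were called. Without overlap 17 members were lower with antimycin A (10.4%), as were 17 with piericidin (11%), while Rrp12 was higher with piericidin (11.1%). Lower with antimycin A were Myc, Dkc1 (-0.52 ± 0.11), Rrp1b (-0.46 ± 0.13), Nop2 (-0.42 ± 0.11), Nolc1 (-0.38 ± 0.10), Ncl (-0.37 ± 0.08), Nop58 (-0.37 ± 0.09) and Mybbp1a (-0.34 ± 0.09). Lower with piericidin were Myc, Nhp2 (-0.47 ± 0.13), Nolc1 (-0.47 ± 0.10) and Wdr43 (-0.37 ± 0.10). Nolc1 read 183, 170.3 and 158 CPM with piericidin against 242, 241 and 225 CPM with 3-NPA, without overlap. Fbl read 80.6, 93.5 and 86.3 CPM with piericidin against 104, 109 and 105 CPM with 3-NPA, and Ebna1bp2 read 104, 108 and 102 CPM with piericidin against 133, 142 and 129 CPM with 3-NPA. Neither was called, at -0.28 ± 0.13 and -0.36 ± 0.11 (edgeR, adjusted p = 0.230 and 0.0624), and Mybbp1a was not called in this pair (-0.23 ± 0.09) nor Wdr43 between antimycin A and 3-NPA (-0.31 ± 0.10). The median over the 36 was -0.21 for antimycin A against 3-NPA and -0.25 for piericidin against 3-NPA, and 0.01 and 0.00 over all genes. The number of members lower with antimycin A than with 3-NPA was 3 without 3-NPA replicate 1 and 4 without antimycin A replicate 3, and for piericidin it was 2 without 3-NPA replicate 1. The number that fell with 3-NPA against untreated cells was 3 without untreated replicate 1 or 3-NPA replicate 3, and 4 without 3-NPA replicate 2. Of the 6 fits without 1 library, 5 called Nop58, 4 called Nolc1, 3 called Mybbp1a, 3 called Nop2 and 2 called Rrp1b between antimycin A and 3-NPA, and 3 called Wdr43 and 2 called Nhp2 between piericidin and 3-NPA.

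Wider lists were read in the same libraries. Of the 117 further ribosome assembly genes, 29 fell with piericidin, 4 with 3-NPA and 29 with antimycin A, where 2 also rose. Rsl1d1, a nucleolar protein of the large subunit, fell by 0.59 ± 0.10, 0.35 ± 0.10 and 0.73 ± 0.10 with piericidin, 3-NPA and antimycin A, and Ubtf, the architectural factor of ribosomal gene transcription, fell by 0.39 ± 0.10, 0.50 ± 0.10 and 0.46 ± 0.10. None of the 14 RNA polymerase III genes was called with any of the 3. Of 14 Myc targets outside the nucleolus, 13 fell with piericidin, 9 with 3-NPA and 12 with antimycin A, among them the transferrin receptor Tfrc with -0.70 ± 0.09, -0.48 ± 0.09 and -0.77 ± 0.09. Max, the partner of Myc, fell by 0.40 ± 0.12 with piericidin and 0.49 ± 0.13 with antimycin A, and Mxi1, a repressor that competes with Myc for Max, rose by 0.77 ± 0.20 and 0.86 ± 0.20. Mxd4 rose with all 3, by 0.42 ± 0.13, 0.63 ± 0.13 and 0.80 ± 0.13.

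Proliferation genes had lower list medians than the 36 genes with each inhibitor. Of 25 S phase genes 23 fell with piericidin, 10 with 3-NPA and 25 with antimycin A, with list medians of -0.97, -0.54 and -1.32. All 20 genes of G2 and mitosis fell with piericidin and with antimycin A and 6 with 3-NPA, with medians of -1.46, -0.62 and -2.04. The part of the cell cycle in the fall of the 36 genes was not tested. Treg markers stayed abundant, with summed levels of 7481 to 7717 CPM with piericidin, 7197 to 7317 CPM with 3-NPA, 6766 to 7338 CPM with antimycin A and 7262 to 7448 CPM in untreated cells, and macrophage markers summed to 15.2 to 23.6 CPM in all 12 libraries. No tested marker of another cell type was called with any of the 3 inhibitors.

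**Figure D4:**
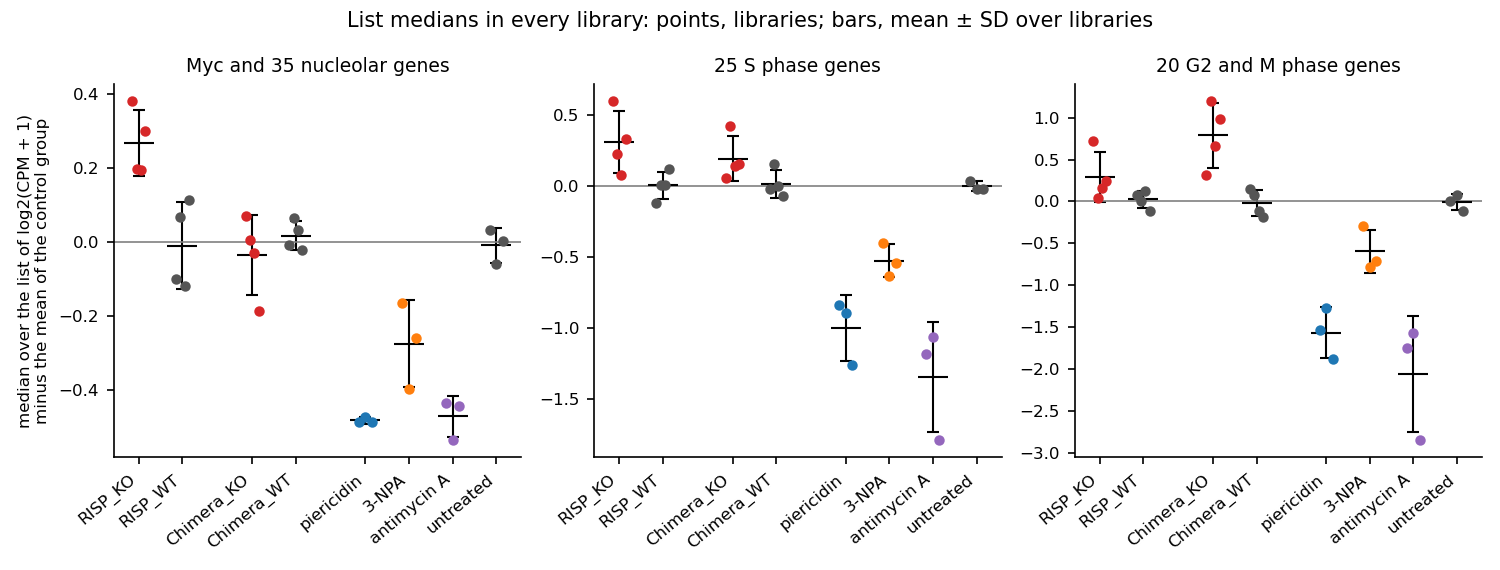
For each library (points; bars are mean ± SD over libraries), the median over a list of log2(CPM + 1) minus the mean of the control group (y axis), for the 36 members and for the other lists named above the panels, by group (x axis). For the members the RISP_KO libraries lie between 0.20 and 0.38, the chimera knockout libraries between -0.19 and 0.07, and the piericidin and antimycin A libraries between -0.54 and -0.43.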

How the data were processed

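The tables the authors deposited give raw counts of reads for each Ensembl gene in 28 libraries of sorted Treg cells. Per the submitters' processing notes, the authors used bcl2fastq, TopHat, HTSeq, edgeR and the mm10 genome, and per the labels' protocols RISP_KO and RISP_WT libraries were made with the Takara kit and all others with the NEB kit. Tool versions, filters and strand setting are not given in the sources used here. Symbols came from a GENCODE M21 name table, which matched 42462 of 43430 identifiers. A table with 11 further columns was not analysed here, because its columns match no sample of the labels.

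The 36 members, the lists and the tests were chosen with earlier results of these data known. Counts were tested with edgeR 4.0.16 (R 4.3.3, limma 3.58.1), using filterByExpr by group, TMM factors, glmQLFTest, Benjamini-Hochberg adjustment over all genes tested, calls at an adjusted p under 0.05, and a prior count of 0.125. Each knockout comparison was fitted in its own table, the inhibitors in a single fit of 12 libraries, and the difference of knockout effects in a single fit of 16, in all 9 comparisons. An SE is the size of the log2 fold change over the root of its F statistic. Counts at an unadjusted p are not calls, and the share of all genes at that threshold is not given beside them. The fits were also run on counts simulated from their own estimates of the spread. That run cannot show a misfit to the real libraries, and its results are not given here. The spread between libraries beyond counting was a coefficient of variation of 21.6% for 3-week-old mice, 20.5% for chimeras and 14.7% for cells in vitro. No pair of libraries of the same group agreed within sampling noise, and pairs from different groups were not compared in this way.

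Values of single libraries are given for Myc and, in each comparison, for the gene of each role with the smallest p (a called one where there was any), and log2 fold changes also for every called member. Other genes named are at most 3 called genes of each list with the smallest p, and Myc network genes. Alternatives were DESeq2 1.42.0, RLE factors, library totals, no filter, a filter of 1 CPM, the replicate number as a block, the 2 groups alone in vitro and leaving out each library, and, added after seeing the data, leaving out replicates 2 and 4 of RISP_Chimera_KO together.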

Additional observations from a re-analysis of the deposited data

Results flagged for a closer look

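In groups of 4 libraries, 9 of 144 gene and group pairs held a library whose gap to the nearest other, relative to the range of the group, was beyond Dixon's critical value. Chance gives about 1 in 20 such pairs. For knockouts of 3-week-old mice, Gnl3 read 76.96 CPM in RISP_KO replicate 1 against 53.0 to 54.4 CPM in the other 3, Utp15 read 106 CPM in replicate 4 against 85.1 to 87.2 CPM, and Bop1 read 119 CPM in replicate 3 against 148 to 153 CPM. In RISP_WT, Bop1 read 133 CPM in replicate 1 against 138 to 139 CPM in the others, Ebna1bp2 read 102 CPM in replicate 4 against 94.8 to 95.3 CPM, and Rrp1b read 34.2 CPM in replicate 3 against 42.8 to 44.4 CPM. In chimeras, Rrp9 read 37.4 CPM in RISP_Chimera_KO replicate 4 against 55.7 to 59.4 CPM, and in RISP_Chimera_WT Ddx21 read 286 CPM in replicate 1 against 335 to 338 CPM and Nop16 read 25.02 CPM in replicate 4 against 28.8 to 29.4 CPM.

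The effect of the knockout in chimeras minus that in 3-week-old mice passed the test of the difference (edgeR, adjusted p under 0.05) for Myc (-0.98 on the log2 scale), Nop56 (-0.85), Rrp1b (-0.70) and Nop2 (-0.62). Myc was called in all 23 alternatives of this fit, Rrp1b in 22, Nop56 in 15 and Nop2 in 10.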

How the results depend on the processing

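Leaving out each library gave these ranges. The number of members that rose in RISP_KO was 4 to 10, and the log2 fold change of Myc there 0.49 to 0.72. In chimeras 0 members were called each time and Myc lay between -0.43 and -0.26. Members that fell numbered 20 to 23 with piericidin, 3 to 7 with 3-NPA and 20 to 26 with antimycin A, and the medians of all 36 were -0.51 to -0.47, -0.31 to -0.21 and -0.54 to -0.45. Myc lay between -0.0085 and 0.10 with 3-NPA, reversed in sign without untreated replicate 2 (-0.0085) and without 3-NPA replicate 1 (-0.0024). Antimycin A against piericidin gave 0 calls each time and a median of -0.037 to 0.045. Members lower with antimycin A than with 3-NPA numbered 3 to 10, members lower with piericidin than with 3-NPA 2 to 5, and those with a lower knockout effect in chimeras 2 to 7. Where a group was left with 2 libraries, the spread is that of the whole fit. Correlations of the libraries' deviations do not settle whether the replicate numbers pair the samples. For same-numbered libraries they lay between -0.04 and 0.03 in 3-week-old mice and between -0.10 and 0.13 in chimeras. For differently numbered ones they lay between -0.10 and 0.07 and between -0.12 and 0.17. In vitro all 18 same-numbered pairs were positive, at 0.004 to 0.09, against -0.08 to 0.03 for differently numbered ones. Same-numbered libraries in vitro thus shared a small part of their deviations. The main fits treat all libraries as unpaired. With the replicate number as a block, 5 members rose in RISP_KO and 2 differed between the knockout effects, while 26, 8 and 27 fell with piericidin, 3-NPA and antimycin A. Without replicates 2 and 4 of RISP_Chimera_KO, those with the highest summed macrophage markers, 2 differed. The causes were not tested. DESeq2, RLE factors, library totals, no filter and the filter of 1 CPM left the counts of members and the calls of Myc within 1.5 times and on the same side, with 8 to 12 members that rose in RISP_KO and 5 to 9 that fell with 3-NPA. Libraries in vitro held 2.71 to 3.45 M counts, against at least 20.4 M in the others, and the smallest called change of a member was -0.29 in vitro (Ddx21 with piericidin) and 0.30 in 3-week-old mice (Ebna1bp2).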
